A study of Rattus norvegicus with 6 samples.

Results

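The genes described here encode proteins of cell adhesion, the extracellular matrix and axon guidance. Members were the loci of the deposited annotation that carry the name of a cadherin, protocadherin, collagen, laminin, integrin, netrin, semaphorin, plexin, Eph receptor, ephrin, contactin, neurexin, neuroligin, Lrrtm, Slit or Robo gene. The rule took 75 of 24744 quantified loci, with 326 of 64488 quantified isoforms. Of these, 68 loci and 193 isoforms passed a filter of at least 50 counts in 2 of the 3 libraries of at least 1 strain. Gene names were given to 8336 loci, on chromosomes 2 to 9, 20, X and Y and on the mitochondrial genome, and genes of these families on other chromosomes were not analysed here. The members were 15 collagen, 12 semaphorin, 9 integrin, 7 Eph receptor, 6 plexin, 5 cadherin, 5 ephrin and 3 contactin loci. There were 2 loci each of laminins, Lrrtm, neurexins, neuroligins, protocadherins and Robo, 1 netrin and 0 Slit loci. The integrin names include Itgb1bp1 and Itgb3bp, which encode integrin-binding proteins and not integrins.

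PolyA RNA of the whole brain was sequenced from 3 naïve male SHR rats (SHR/OlaIpcvPrin, the inbred spontaneously hypertensive rat) and 3 naïve male BNLx rats (BN-Lx/CubPrin, an inbred Brown Norway congenic strain with polydactyly-luxate syndrome), as 1 library per rat. No treatment was given and no age is stated. The strains were compared on a transcriptome to which aptardi, a program that predicts polyadenylation sites from reads and DNA sequence, had added 3′ ends. The comparison asks which genes and isoforms differ in abundance between the strains.

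Cadherins and protocadherins join neighbouring cells through calcium-dependent binding, and neurexins on axons bind neuroligins and Lrrtm proteins across the synapse. Collagens and laminins build the extracellular matrix and basement membranes, which cells hold through integrins. Growing axons are steered by semaphorins acting on plexins, by ephrins acting on Eph receptors, and by netrin and Slit proteins, of which the Slits bind Robo receptors.

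Total expected counts per library were 21745966 to 41333078 in SHR and 11747048 to 32826625 in BNLx. Markers of the labelled tissue were high in every library, with the neuronal Snap25 at 1223 to 3637 TPM (a level per transcript length, scaled within each library) and the oligodendrocyte gene Mobp at 354 to 1610 TPM. In each strain 1 library was unlike the other two, namely SHR replicate 1 and BNLx replicate 3. A chi-square test of counts over all loci gave 143 and 154 per degree of freedom for the pairs with SHR replicate 1, against 10.5 for the remaining SHR pair. It gave 84.2 and 107 for the pairs with BNLx replicate 3, against 12 for the remaining BNLx pair. The 3 neuronal markers with a locus did not vary together. Snap25 was at 1223 TPM in SHR replicate 1 against 2250 and 2269 TPM in the other SHR libraries, and at 2107 TPM in BNLx replicate 3 against 2781 and 3637 TPM in the other BNLx libraries, and Syt1 was likewise lowest there in each strain. Gad1, of inhibitory neurons, was highest there, at 349 TPM in SHR replicate 1 against 151 and 158 TPM, and at 191 TPM in BNLx replicate 3 against 178 and 185 TPM. Aqp1, a marker of the choroid plexus, was at 29.8 TPM in SHR replicate 1 and 25.4 TPM in BNLx replicate 3, against 2.88 to 12.6 TPM in the other 4 libraries. In bulk tissue, fewer cells of a type and less RNA per cell cannot be told apart.

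Cntn1, a contactin that neurons and oligodendrocytes carry on their surface, led with a mean of 412 TPM for its locus. Of this, 177 TPM came from the isoforms named Cntn1 and 235 TPM from isoforms given the name AABR07058699.2. Sema7a, a membrane-anchored semaphorin, had a mean of 132 TPM. Of the 75 members, 3 had a mean of 100 TPM or more, 46 a mean from 10 to under 100 TPM, 22 from 1 to under 10 TPM and 4 under 1 TPM. Those 4 were Epha2, Efna4, Col10a1 and Robo4, of which Col10a1 (0.153 TPM), the collagen of growing cartilage, and Robo4 (0.15 TPM), the endothelial Robo receptor, were the lowest. The 7 members below the filter were these 4 with Itga5, Itgb6 and Col9a1, and no strain comparison was made for them.

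**Figure D1:**
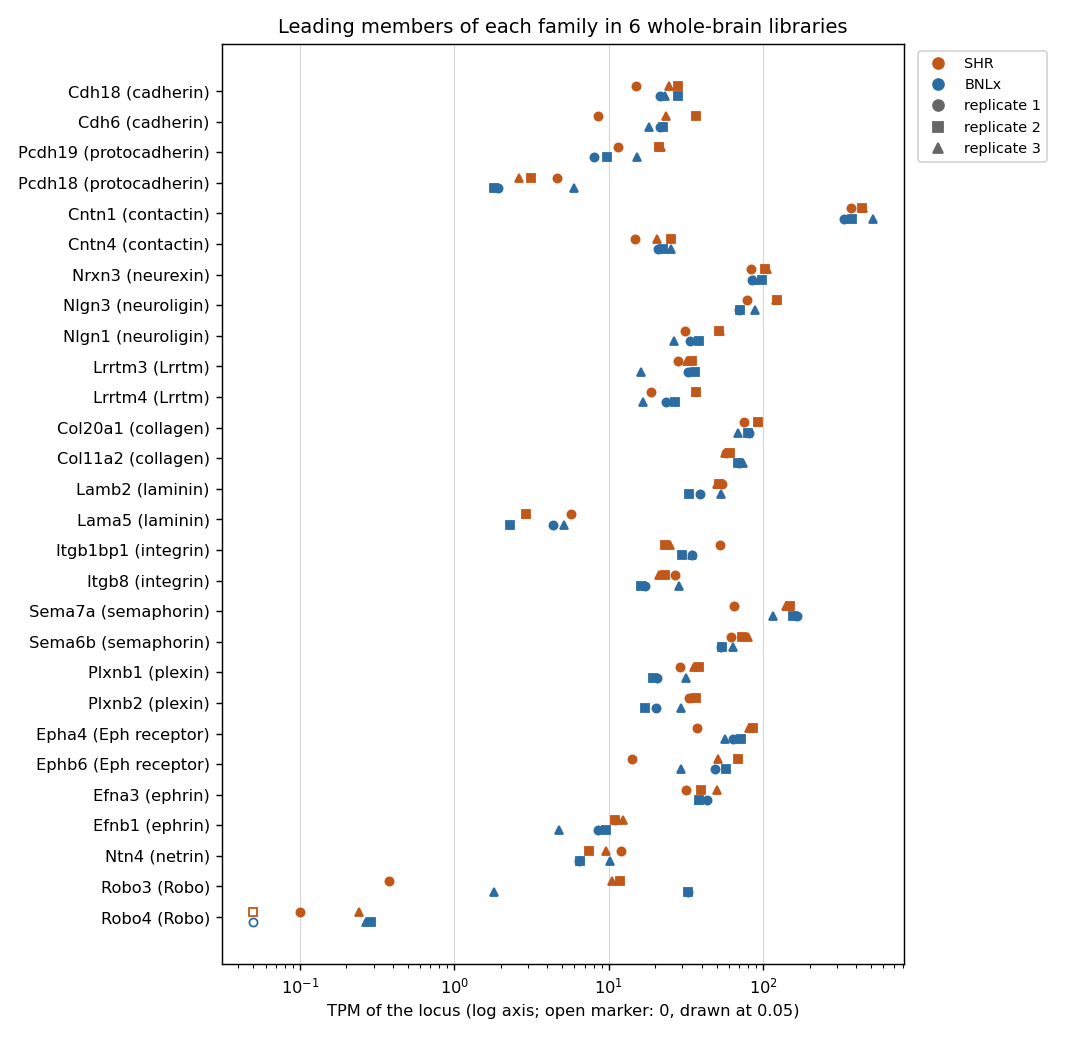
TPM (log axis) of the locus of the most abundant members of each family (up to 2 drawn) in the 6 libraries, with SHR above BNLx in each row and a marker shape for each replicate. Cntn1 and Sema7a lie furthest right, and for Robo3 the markers of SHR replicate 1 (0.38 TPM) and BNLx replicate 3 (1.81 TPM) lie far left of the rest of their strains.

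Loci that hold a second gene were read with the isoform names. The Col20a1 locus averaged 81.8 TPM, the highest of the collagens. Of this, 67.7 TPM came from isoforms named Arfgap1, 0.675 TPM from the isoform named Col20a1 and 13.5 TPM from isoforms without a name. Col11a2, a fibrillar collagen whose locus has 1 name, came next with a mean of 64.7 TPM for the whole locus. The Lamb2 locus, a laminin beta chain, averaged 46.9 TPM, of which 8.94 TPM carried its name and 23.7 TPM the name Ccdc71. In Nlgn3, a neuroligin, 76.9 of 92.2 TPM carried its name and 7.66 TPM the name Med12. The library does not mark strand, so reads of genes that overlap on opposite strands cannot be told apart.

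At the gene level, 0 of the 68 members tested passed an adjusted p of 0.05 in the quasi-likelihood test of edgeR, which called 147 of 14471 loci (1.02%). At an unadjusted p of 0.05 or less, 7 members passed (10.3%, against 10.2% of all loci), of which 6 had a higher and 1 a lower value in SHR, against 739 and 739 over all loci. DESeq2 called 2 members at an adjusted p of 0.05, 1 in each direction (2.94% of the members, against 3.76% of all loci). CPM (counts relative to the TMM-scaled library size) did not overlap between strains for 6 members that were higher in SHR (8.97% of all loci were higher without overlap) and 2 that were lower (8.49% of all loci). The median log2 fold change of SHR over BNLx was 0.03 over the 68 members and 0.00 over all loci. It was above 0 in 38 members and below 0 in 30.

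**Figure D2:**
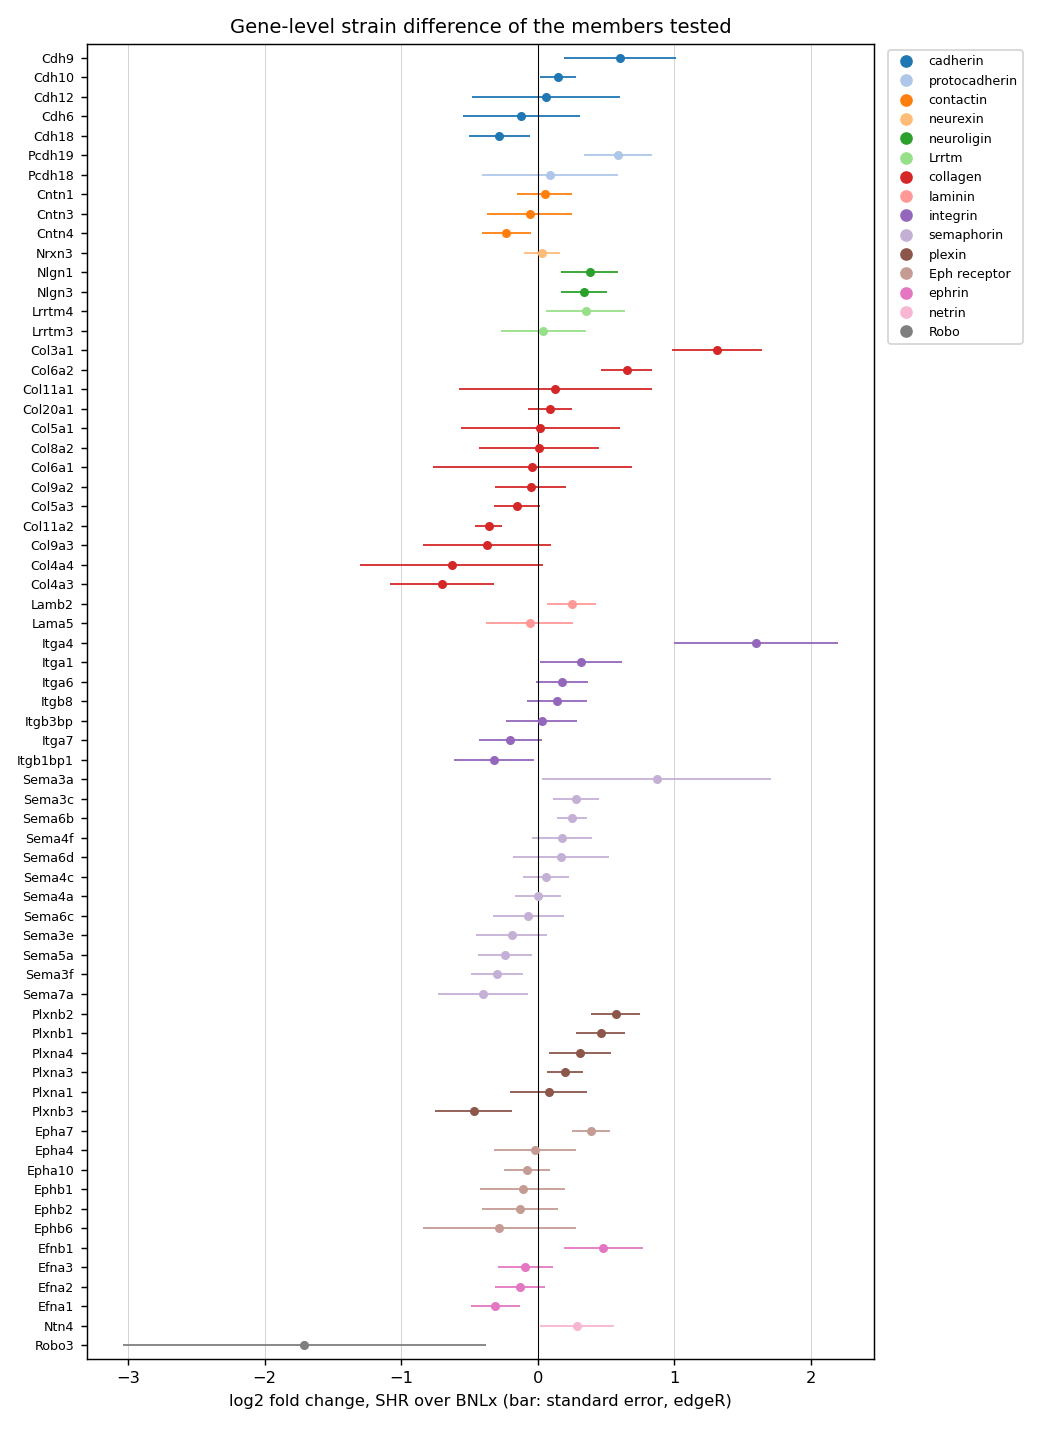
Gene-level log2 fold change of SHR over BNLx for 67 of the 68 members past the filter, grouped by family, with the standard error from edgeR as bars. Of the 67 points, 57 lie within 0.5 of 0, and 0 passed the test.

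Both members that DESeq2 called are fibrillar collagens. Col3a1, the type III collagen of vessel walls and meninges, lies on chromosome 9 (rn6, 52023295 to 52059217). It was at 69.6, 37.8 and 28.4 CPM in SHR replicates 1 to 3, against 19.1, 16.8 and 18.9 CPM in BNLx replicates 1 to 3. Every SHR library was above every BNLx library, and SHR replicate 1 was the highest. The log2 fold change was 1.31 (standard error 0.33), with an adjusted p of 0.228 from edgeR and 0.0102 from DESeq2. Without SHR replicate 1 it was 0.86, with an adjusted p of 0.093 from edgeR. The TPM of this locus did not separate the strains, since 1 count of a second transcript of 141 bases gave 26.6 TPM in BNLx replicate 3.

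Col11a2, on chromosome 20 (rn6, 3830164 to 3859018), was the other one. It was at 169, 166 and 157 CPM in SHR, against 219, 207 and 206 CPM in BNLx, with no overlap. The log2 fold change was -0.36 (standard error 0.10), with an adjusted p of 0.267 from edgeR and 0.00193 from DESeq2. In TPM, SHR was at 57.1, 61.5 and 56.5 and BNLx at 70.2, 69.1 and 74.0.

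The other collagens and the laminins gave values that passed neither test. Col6a2, a chain of the microfibrillar type VI collagen, was at 31.8, 21.5 and 24.7 CPM in SHR, against 18.9, 14.5 and 16.2 CPM in BNLx. Its log2 fold change was 0.65 (standard error 0.19 by edgeR, adjusted p 0.304), and its strains did not overlap. Col6a1, its partner chain and its neighbour on chromosome 20 (97058 bases apart), had a log2 fold change of -0.04 with a standard error of 0.73. Col6a1 was at 32.8, 78.5 and 77.3 CPM in SHR, against 82.8, 97.8 and 12.4 CPM in BNLx, with SHR replicate 1 and BNLx replicate 3 low. Of the 13 collagens tested, 6 had a log2 fold change above 0 and 7 below, and for Col5a1, Col5a3, Col8a2, Col9a2, Col9a3, Col11a1 and Col20a1 it lay between -0.37 (Col9a3) and 0.13 (Col11a1). Lamb2 had a log2 fold change of 0.25 (standard error 0.18) and Lama5, a laminin alpha chain of basement membranes, of -0.06 (standard error 0.32).

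Markers of mural cells and fibroblasts, which make much of the collagen of the brain, were also higher on average in SHR. The 4 of 10 listed markers with a locus, Kcnj8, Dcn, Lum and Slc6a13, summed to 40.5 to 68.7 TPM in SHR and to 20.1 to 42.0 TPM in BNLx, so that the sums overlapped, and none of them was at 0. Dcn, which encodes decorin, was at 24.6 to 32.9 TPM in SHR and 12.1 to 21.8 TPM in BNLx, and Kcnj8 at 3.05 to 3.71 TPM in SHR and 1.87 to 2.64 TPM in BNLx, both without overlap. Lum, at 4.1 to 11.5 TPM in SHR and 1.62 to 7.0 TPM in BNLx, overlapped. So did Slc6a13, at 7.86 to 23.8 TPM in SHR and 4.21 to 10.6 TPM in BNLx. The lowest adjusted p of the list was 0.318 from edgeR. The part of these cells in the collagen values was not tested.

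Col4a3 and Col4a4 encode chains of the type IV collagen of basement membranes and lie head to head on chromosome 9. Their annotated starts in rn6 are 88357556 on the plus strand and 88357182 on the minus strand, with 373 bases between them. Col4a3 was at 5.18, 9.81 and 6.64 CPM in SHR, against 8.46, 8.98 and 17.8 CPM in BNLx (log2 fold change -0.70, standard error 0.38 by edgeR, adjusted p 0.616). Col4a4 was at 2.09, 3.93 and 3.80 CPM in SHR, against 2.17, 2.53 and 10.5 CPM in BNLx (log2 fold change -0.63, standard error 0.67 by edgeR, adjusted p 0.813). Both genes were highest in BNLx replicate 3 and lowest in SHR replicate 1. Without these libraries the log2 fold change of Col4a4 turned to 0.74 (adjusted p 0.0564) and that of Col4a3 was -0.08 (adjusted p 0.802). The bases between these genes are shown because both start there. RefSeq gives a window for 59 of the 75 members in build GRCr8, where the starts are 412 bases apart. The 250 bases before each start, read 5′ to 3′ on the strand of the gene, overlap in the 88 bases in capitals.
Col4a3: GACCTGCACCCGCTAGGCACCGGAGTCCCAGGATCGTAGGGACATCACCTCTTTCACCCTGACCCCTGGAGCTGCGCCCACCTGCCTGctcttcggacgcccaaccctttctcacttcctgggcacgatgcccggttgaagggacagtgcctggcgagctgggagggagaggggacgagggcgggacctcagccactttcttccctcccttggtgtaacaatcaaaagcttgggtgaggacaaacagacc
Col4a4: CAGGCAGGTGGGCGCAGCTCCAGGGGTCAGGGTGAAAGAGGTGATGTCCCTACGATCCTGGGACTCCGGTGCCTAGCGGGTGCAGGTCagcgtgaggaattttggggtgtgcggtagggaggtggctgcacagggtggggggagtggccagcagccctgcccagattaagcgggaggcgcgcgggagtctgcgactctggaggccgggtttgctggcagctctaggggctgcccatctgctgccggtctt
The first window is chr9:91323740-91323989 on the plus strand and the second chr9:91323578-91323827 on the minus strand. They hold 62.0% and 66.4% G and C, against a median of 51.2% over all windows of that length. On either strand, GGGCGG, the letters of a GC box, occurs 1 time in the window of Col4a3 and 0 times in that of Col4a4, and in 30.5% of all such windows. CCAAT (in 34.0% of all windows) and TATAAA (in 12.9%) occur in neither.

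Among integrins, Itga4, which pairs with beta chains on leukocytes and other migrating cells, had the highest log2 fold change of the 68 members, 1.60 (standard error 0.60 by edgeR, adjusted p 0.432), at a mean of 61 counts. It was at 1.44, 4.98 and 5.41 CPM in SHR, against 1.70, 1.39 and 0.693 CPM in BNLx, and the strains overlapped. It falls below the mean of 100 counts asked of named genes and is given because it is 1 of the 7 members at an unadjusted p of 0.05 or less. There were 4 microglia markers with a locus, Aif1, Cx3cr1, C1qa and P2ry12. They summed to 221, 174 and 159 TPM in SHR, against 150, 152 and 145 TPM in BNLx. The sum was highest in SHR replicate 1. Aif1 and C1qa each overlapped between strains. Cx3cr1, at 24.4 to 31.5 TPM in SHR and 18.6 to 21.2 TPM in BNLx, did not overlap. Nor did P2ry12, at 41.4 to 44.0 TPM in SHR and 32.2 to 36.9 TPM in BNLx. The part of microglia in the value of Itga4 was not tested. The 2 leading loci by TPM were Itgb1bp1 (33.3 TPM) and Itgb8 (22.2 TPM), which encodes a beta chain that pairs with the alpha v chain. The log2 fold changes of Itgb1bp1 and Itgb8 were -0.32 (standard error 0.29) and 0.14 (standard error 0.22).

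Among semaphorin receptors, 5 of 6 plexins had a log2 fold change above 0, and none passed. Plxnb2, a receptor of class 4 semaphorins, was at 99.7, 101 and 96.7 CPM in SHR, against 64.5, 52.2 and 83.5 CPM in BNLx. All SHR libraries were above all BNLx libraries, with a log2 fold change of 0.57 (standard error 0.18 by edgeR, adjusted p 0.329). Plxnb1, the receptor of Sema4d, was at 122, 148 and 143 CPM in SHR, against 92.3, 83.6 and 125 CPM in BNLx (log2 fold change 0.46, standard error 0.18 by edgeR, adjusted p 0.457). Here BNLx replicate 3 lay above the lowest SHR library. Plxnb3, a plexin known from oligodendrocytes, was at 61.5, 53.7 and 44.5 CPM in SHR, against 69.9, 49.7 and 102 CPM in BNLx, a log2 fold change of -0.47 (standard error 0.28). Of the oligodendrocyte markers, Mog was at 95.1 to 196 TPM in SHR and 183 to 347 TPM in BNLx, and Mobp at 354 to 567 TPM in SHR and 665 to 1610 TPM in BNLx, both highest in BNLx replicate 3 as was Plxnb3. Their part in the value of Plxnb3 was not tested.

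The semaphorins themselves split evenly, with 6 of 12 log2 fold changes above 0. Sema6b, a transmembrane semaphorin that binds A-type plexins, was at 110, 118 and 134 CPM in SHR, against 100, 97.6 and 107 CPM in BNLx, with no overlap (log2 fold change 0.25, standard error 0.11 by edgeR, adjusted p 0.532). Sema3c, a secreted guidance cue, had a log2 fold change of 0.28 (standard error 0.17). Sema3f, a repellent that signals through neuropilin 2, had -0.30 (standard error 0.19) and Sema5a, a transmembrane semaphorin, -0.24 (standard error 0.20). Sema7a was at 76.7, 162 and 159 CPM in SHR, against 208, 188 and 130 CPM in BNLx, a log2 fold change of -0.40 (standard error 0.33) in which both strains hold 1 low library. Sema3a had 0.87 (standard error 0.84), and the remaining 6 semaphorins lay between -0.19 (Sema3e) and 0.18 (Sema4f).

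Of the Eph receptors, Epha7, which shapes cortical maps through repulsion, was at 51.0, 60.1 and 67.5 CPM in SHR, against 46.4, 48.9 and 41.3 CPM in BNLx. The strains did not overlap, and the log2 fold change was 0.39 (standard error 0.14 by edgeR, adjusted p 0.408). The other 5 Eph receptors tested had log2 fold changes from -0.28 (Ephb6) to -0.02 (Epha4), the 2 most abundant members of the family. Ephrins gave 1 value above 0 and 3 below. Efna1 was at 5.48, 4.64 and 4.67 CPM in SHR, against 6.38, 5.84 and 6.08 CPM in BNLx, with no overlap (log2 fold change -0.31, standard error 0.18 by edgeR, adjusted p 0.639). Efnb1, an ephrin encoded on chromosome X, had 0.48 (standard error 0.29), and Efna3, the most abundant ephrin at 40.4 TPM, -0.09 (standard error 0.20). Ntn4, a netrin of basement membranes, had 0.29 (standard error 0.27).

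Synaptic and neuronal adhesion genes did not pass the test with all 6 libraries. Nlgn3 was at 152, 214 and 217 CPM in SHR, against 147, 144 and 171 CPM in BNLx (log2 fold change 0.34, standard error 0.17 by edgeR, adjusted p 0.589). Nlgn1, a neuroligin of excitatory synapses, was at 67.0, 97.1 and 97.3 CPM in SHR, against 69.5, 77.1 and 53.5 CPM in BNLx (log2 fold change 0.38, standard error 0.21 by edgeR, adjusted p 0.605). In both neuroligins SHR replicate 1 was the low SHR library and the strains overlapped. Their partner Nrxn3 had a log2 fold change of 0.03 (standard error 0.13), and Lrrtm3 and Lrrtm4, leucine-rich synaptic proteins that bind neurexins, of 0.04 (standard error 0.31) and 0.35 (standard error 0.29). Pcdh19, a protocadherin of chromosome X, had 0.59 (standard error 0.25 by edgeR, adjusted p 0.497) and Pcdh18 0.09 (standard error 0.50). Cntn4, a contactin of olfactory and visual axons, had -0.23 (standard error 0.18), Cntn1 0.05 (standard error 0.20), and the cadherins Cdh18 and Cdh6 -0.28 (standard error 0.22) and -0.12 (standard error 0.43). The 5 cadherins lie on chromosome 2, from 63095916 (Cdh6) to 74693341 (Cdh18) in rn6, and for Cdh6, Cdh10, Cdh12 and Cdh18, but not Cdh9, both SHR replicate 1 and BNLx replicate 3 were below the other 4 libraries.

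Robo3 varied most with the library. This receptor, which lets commissural axons of the hindbrain and spinal cord cross the midline, was at 0.38, 11.8 and 10.5 TPM in SHR, against 32.5, 32.4 and 1.81 TPM in BNLx. The lowest library of each strain was the one that stands apart. With all 6 libraries the log2 fold change was -1.71 with a standard error of 1.33 (adjusted p 0.740 from edgeR). Without SHR replicate 1 and BNLx replicate 3 together it was -1.69 with an adjusted p of 0.00083.

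This pattern ran through the members. In 23 of the 68 (33.8%), SHR replicate 1 and BNLx replicate 3 both had a lower CPM than all 4 other libraries, against 16.0% of all loci tested. In 14 (20.6%), both were higher than the other 4, against 15.8% of all loci. The members below included Nrxn3, Nlgn1, both Lrrtm genes, the A-type plexins Plxna1, Plxna3 and Plxna4, Epha4, Ephb6, Col5a1, Col6a1, Sema3a and Sema7a. Those above included Col11a1, Col9a2, Lama5, Lamb2, Ntn4, Pcdh18, Sema6d, Itgb8 and Ephb1. Col11a1, a minor fibrillar collagen, was at 18.1 TPM in SHR replicate 1 against 8.01 and 8.37 TPM in the other SHR libraries, and at 22.5 TPM in BNLx replicate 3 against 5.29 and 3.70 TPM in the other BNLx libraries. Sema3a, a secreted repellent, was at 4.52 TPM in SHR replicate 1 against 15.7 and 13.8 TPM in the other SHR libraries, and at 0.78 TPM in BNLx replicate 3 against 8.12 and 7.80 TPM in the other BNLx libraries. Snap25 and Syt1 were low and Gad1 and Aqp1 high in these libraries, as given above, and the part of such cells in the pattern was not tested.

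**Figure D3:**
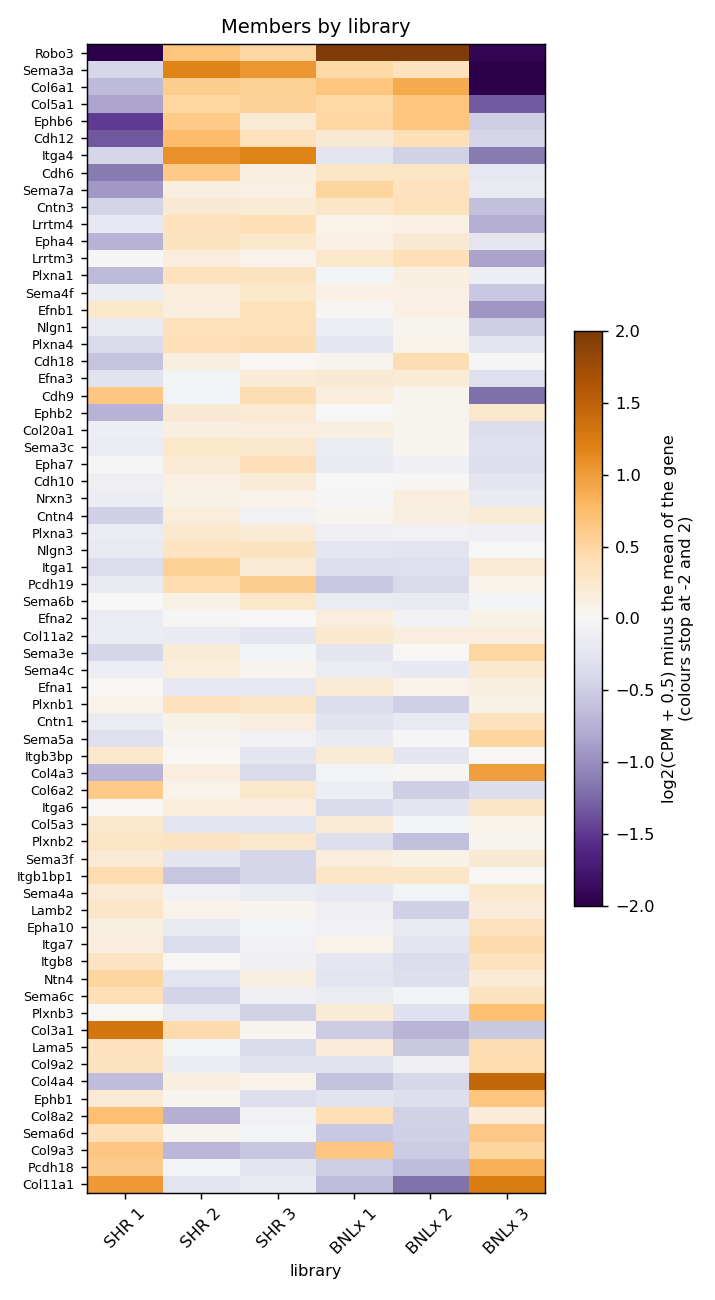
Each row is 1 of 67 of the 68 members and each column a library, and the colour gives log2(CPM + 0.5) minus the mean of the gene (orange above, purple below, colours stop at -2 and 2). Rows run by how SHR replicate 1 and BNLx replicate 3 lie against the other 4 libraries, with Robo3 and Sema3a at the top and Col11a1 at the bottom.

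Without these 2 libraries, 24 of the 68 members passed an adjusted p of 0.05 in edgeR (35.3%), and so did 28.8% of all loci. Of the 24, 19 were higher and 5 lower in SHR, while over all loci 2181 were higher and 1991 lower. The 5 lower members were Col11a2, Itgb1bp1, Robo3, Sema3f and Sema7a. The higher ones included 5 of the 6 plexins (all but Plxnb3), Nlgn1, Nlgn3, Pcdh19, Epha7, Sema3a, Sema6b and Sema6d, Col3a1 and Col11a1, and the integrins Itga1, Itga4 and Itga6. Pcdh19 had a log2 fold change of 1.00 (adjusted p 0.00281), Plxnb1 of 0.72 (adjusted p 0.00351) and Nlgn3 of 0.56 (adjusted p 0.00353) in this fit of 2 against 2 libraries.

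At the isoform level, 1 of 193 member isoforms reached an unadjusted p of 0.001 in edgeR (0.518%), against 1.00% of all isoforms. It is STRG.8753.1 of Nlgn1 (ENSRNOG00000032576), on the minus strand of chromosome 2 (rn6, 111057291 to 111970825), with 8 exons and 4779 bases. It was at 28.8, 36.8 and 41.8 CPM in SHR, against 3.07, 2.61 and 1.66 CPM in BNLx, with no overlap. STRG.8753.1 passed the filter through its SHR counts alone. Its p-values, here and below, thus follow a selection on the strain where it is high. The log2 fold change was 3.86 (standard error 0.32 by edgeR, adjusted p 0.0189). DESeq2 called 2 member isoforms at this threshold (1.04%, against 3.60% of all isoforms), STRG.8753.1 and STRG.55638.1, the main isoform of Col11a2, which was lower in SHR.

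Nlgn1 has 17 quantified isoforms, of which 8 passed the filter. STRG.8753.1 made up 41.9%, 37.8% and 42.8% of the counts of the locus in SHR, against 4.33%, 3.36% and 3.05% in BNLx. Its means were 40.8 ± 2.67% in SHR and 3.58 ± 0.668% in BNLx (SD, n = 3 each). The aptardi isoform STRG.8753.7.1, a short form of 3 exons that ends 1777 bases beyond its original transcript, held 19.6%, 0.593% and 1.57% in SHR, against 49.0%, 47.6% and 28.7% in BNLx (unadjusted p 0.0824 for its CPM in edgeR). Both isoforms thus differed in share without overlap, in opposite directions. Shares of a locus are parts of 1 total, so a rise of 1 isoform lowers the rest and the directions are not independent. STRG.8753.3.1 averaged 13.0 ± 7.01% in SHR and 19.1 ± 2.62% in BNLx, and STRG.8753.6.1 14.4 ± 3.72% in SHR and 13.2 ± 3.48% in BNLx (SD, n = 3 each), with overlap. STRG.8753.2 held 1.38% to 5.06% in the other 5 libraries and 27.5% in BNLx replicate 3. STRG.8753.3 and STRG.8753.7, which end at the original 3′ end, held 118 and 119 counts and 95 and 133 counts in SHR replicates 2 and 3, and 0 counts in SHR replicate 1 and in every BNLx library.

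**Figure D4:**
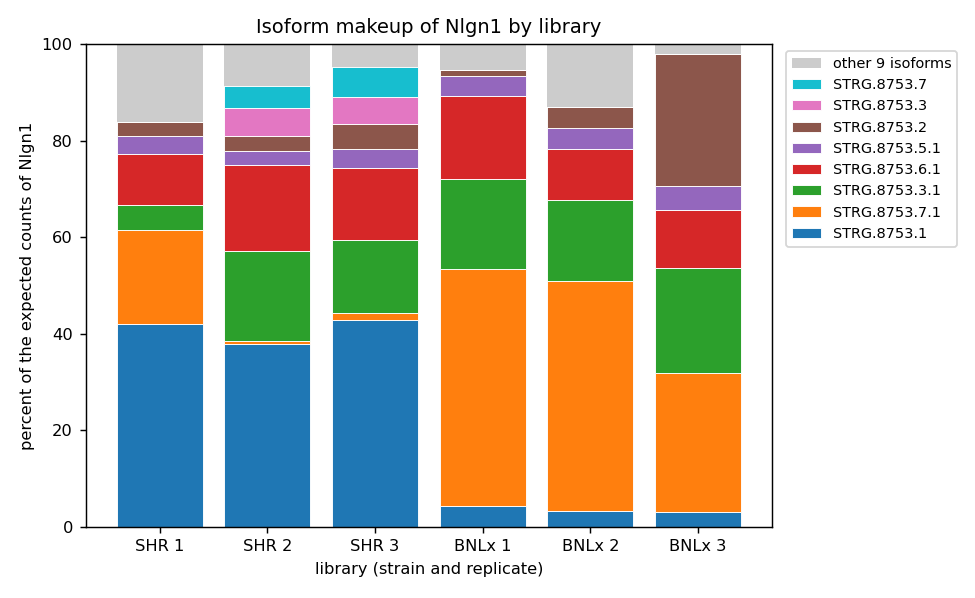
Share of the expected counts of Nlgn1 held by each isoform past the filter and by the other 9 isoforms together, in the SHR libraries on the left and the BNLx libraries on the right. STRG.8753.1 takes 37.8% to 42.8% in SHR and 3.05% to 4.33% in BNLx.

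The structure of STRG.8753.1 differs from the others in its last exons. It alone of the 17 has a gap of 21 bases, from 111058737 to 111058757, where STRG.8753.2 has 1 exon of 2637 bases, from 111057291 to 111059927. The aptardi forms run unbroken over these bases, and the transcripts that end at 111059105 do not reach them. It also holds an exon of 60 bases, 111544490 to 111544549, that only 4 of the 17 isoforms have, the other 3 being STRG.8753.4 and its aptardi forms, which did not pass the filter. Reads had been aligned to a separate genome for SHR and for BNLx, each made from rn6, and whether this or the gap bears on the counts was not tested.

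In the test of isoform usage, which asks whether the isoforms of a locus change by different amounts, Nlgn1 was the only one of 45 members tested to pass, with an adjusted p of 0.00996 from edgeR (2.22% of the members, against 4.37% of all loci tested). Its call was lost when SHR replicate 2 or 3 or BNLx replicate 1 or 2 was left out, with adjusted p-values of 0.0875 to 0.353, and with limma on voom weights (0.141). The isoform call for STRG.8753.1 held in every alternative tried, with unadjusted p-values up to 0.000871. Cntn3, a contactin, came next in the usage test with an adjusted p of 0.0769, then Epha4 with 0.15, Nrxn3 with 0.219 and Cdh12 with 0.365. Without SHR replicate 1 and BNLx replicate 3 together, 11 members passed the usage test (24.4%, against 23.0% of all loci), and 10 of their isoforms reached an unadjusted p of 0.001 (5.18%, against 2.92% of all isoforms).

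The 3′ ends of these loci were compared as well. Of the 75 members, 27 had an isoform added by aptardi (36.0%, against 27.7% of all loci with a gene name). Of their 84 aptardi isoforms, 25 ended before the original 3′ end and 59 beyond it. Thus 29.8% were shorter, against 45.9% over all named loci. The median shortening was 1440 bases and the median lengthening 1770 bases in the members, against 1020 and 1010 bases over all named loci. Members are also longer genes, with a median span of 65.5 kb against 16.7 kb, a median of 18 exons in the longest isoform against 6, and a median of 3 isoforms against 2.

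The share at the original 3′ end is the part of the expected counts of a transcript and its aptardi forms assigned to the original. Reads at the end itself were not counted. This share was computed for 51 original transcripts of 25 members. It did not overlap between strains in 2 that were higher in SHR (4.56% of all original transcripts were higher without overlap) and in 1 that was lower (5.45%). In 15 of the 51 (29.4%, against 11.7% of all) the original end held no counts in any library, so that all counts went to aptardi isoforms. These included transcripts of Cntn4, Col5a1, Col9a3, Plxna4, Plxnb1, Itgb8 and Sema6d. They also included a transcript of the Cntn1 locus that carries the name AABR07058699.2 and not Cntn1. The Sema6d transcript and its aptardi form together held as few as 1 count in a library.

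Cntn3, on chromosome 4 (rn6, 134783659 to 135069970), has 1 original transcript and 1 aptardi form that ends 1009 bases beyond it. The original end held 38.8%, 56.0% and 43.6% of the counts in SHR, against 0%, 0% and 7.16% in BNLx. Every SHR library lay above every BNLx library in this share. The original isoform was at 8.05, 18.2 and 13.9 CPM in SHR, against 0, 0 and 1.34 CPM in BNLx (log2 fold change 4.97, standard error 1.73 by edgeR, adjusted p 0.497). The longer form was at 12.7, 14.3 and 17.9 CPM in SHR, against 34.6, 35.9 and 17 CPM in BNLx (log2 fold change -0.97, standard error 0.33). BNLx replicate 3 lay among the SHR libraries for this form. The gene as a whole had a log2 fold change of -0.06 (standard error 0.31). The original isoform passed the filter through its SHR counts alone. BNLx replicate 3 was the only BNLx library with counts of it. A fit without that library would leave BNLx at 0 throughout, so its p-value is not given.

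In Ephb6, an Eph receptor without kinase activity, the original end held 35.6%, 39.2% and 41.7% in SHR, against 20.7%, 20.2% and 33.6% in BNLx. In the transcript STRG.8213.4 of Cdh18 it held 56.2%, 40.4% and 52.8% in SHR, against 65.6%, 83.7% and 66.7% in BNLx. The Cdh18 transcripts STRG.8213.1, STRG.8213.2 and STRG.8213.3, whose aptardi forms also end 1523 bases before the original, overlapped between strains. Their means were 84.7%, 66.5% and 79.6% in SHR, against 68.0%, 72.4% and 87.8% in BNLx, so STRG.8213.1 went the other way. The usage test passed neither locus, with adjusted p-values of 0.75 and 0.914 from edgeR.

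In Epha4 and Nrxn3, an aptardi isoform past the filter had counts in SHR replicates 2 and 3 and in no BNLx library. STRG.34921.1.1 of Epha4, which ends 285 bases before its original transcript, held 0, 581 and 1090 counts in SHR, against 0 counts in each BNLx library. STRG.25473.1.1 of Nrxn3, which ends 1104 bases before its original transcript, held 0, 1362 and 1077 counts in SHR, against 0 in each BNLx library. In SHR replicates 2 and 3 it stood in place of the original STRG.25473.1, which was at 34.1, 0 and 0 CPM in SHR, against 38.9, 39.3 and 20.8 CPM in BNLx. A count of 0 allows up to 3 counts, or 0.0951 to 0.261 CPM in the BNLx libraries. SHR replicate 1 was at 0 for both and so resembled the BNLx libraries. Both isoforms passed the filter through SHR replicates 2 and 3 and were named for their counts of 0 in BNLx. Their p-values rest on the same values and are not given.

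**Figure D5:**
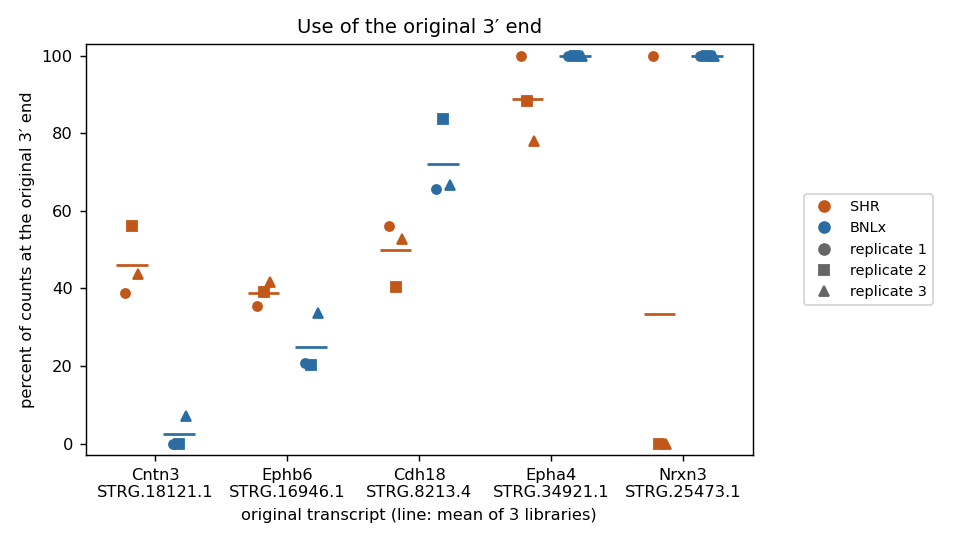
Percent of the expected counts of an original transcript and its aptardi forms that were assigned to the original transcript. Each SHR library is left of each pair and each BNLx library right, with lines at the means of 3 libraries. Cntn3 and Ephb6 lie higher and STRG.8213.4 of Cdh18 lower in SHR without overlap. For Epha4 and Nrxn3, SHR replicate 1 sits with BNLx at 100%.

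Other genes of the same pathways were taken as a list chosen by role. Of 93 listed partners, such as neuropilins, Unc5 and Dcc receptors, catenins, lecticans and reelin, 40 had a named locus, and 39 loci were tested. Of these, 0 passed an adjusted p of 0.05 in edgeR in either direction and 1, Nexmif, reached an unadjusted p of 0.05 (2.56%, against 10.2% of all loci), and DESeq2 called 0. Nexmif, an X-linked gene of neurite extension, was at 8.41, 16.5 and 15.0 TPM in SHR, against 6.70, 7.57 and 8.78 TPM in BNLx. The log2 fold change was 0.66 (standard error 0.209 by edgeR, adjusted p 0.340). The median log2 fold change of the partners was 0.15. Without SHR replicate 1 and BNLx replicate 3, 24 of the 39 passed an adjusted p of 0.05 in edgeR (61.5%, against 28.8% of all loci), 21 of them higher and 3 lower in SHR. Among them, Reln, the secreted glycoprotein reelin, had a log2 fold change of 1.13 (adjusted p 0.000965) and Ncam1, a neural cell adhesion molecule, of 0.57 (adjusted p 0.00507) in that fit, and both were named after their values were seen.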

How the data were processed

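Whole-brain polyA RNA of 3 SHR and 3 BNLx rats was sequenced as paired reads on a kit that does not mark strand. The labels name the HiSeq2000 and the methods the HiSeq2500, and the lane of each library is not stated. The authors trimmed reads with cutadapt and aligned them with HISAT2, using for each strain its own version of rn6. They merged the alignments, assembled them with StringTie 1.3.5 (version from the submitters' processing notes), added 3′ ends with aptardi and ran RSEM. It gave the deposited expected counts, which are not normalized, and the deposited TPM, which are scaled within each library, for isoforms and for loci. A further deposited table lists the expected counts of 32348 isoforms, those that pass the filter used here, with values equal to the single files.

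Expected counts were rounded, and all loci or isoforms past the filter entered 1 quasi-likelihood fit each (R 4.3.3, edgeR 4.0.16, TMM scaling, SHR over BNLx, no covariate, two-sided). Adjusted p-values are Benjamini-Hochberg over all features tested. Loci were called at an adjusted p of 0.05, isoforms at an unadjusted p of 0.001 and isoform usage, by diffSpliceDGE, at an adjusted p of 0.05. DESeq2 1.42.0 and limma 3.58.1 served as alternatives. In simulated counts, edgeR recovered 13% of loci changed 2-fold and 70% of those changed 4-fold, with 4 false calls. DESeq2 recovered 50% and 91%, with 73 false calls. For isoforms, edgeR recovered 2% and 32%, with 22 false calls, and DESeq2 16% and 57%, with 255. The usage test recovered 0% and 4.9% of loci, with 7 false calls. A lack of calls therefore does not show a lack of strain differences. The genes named are members or isoforms called, up to 10 members in each direction with the lowest p and a mean of at least 100 counts, the 2 most abundant of each family, and isoforms at 0 in 1 strain only. Others, such as Cntn3, Col4a4, Col6a1, Col11a1, Sema3a and Itga4, were chosen after their values were seen. The members, lists and rule were chosen with earlier results of these data known. The limit of 3 counts behind a count of 0 covers counting error only. Some genes are counted with the others but not reported here by name.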

Additional observations from a re-analysis of the deposited data

How the results depend on the processing

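For genes, 0 members were called in the edgeR test as reported and with other size factors, no filter on low counts, robust dispersion, limma on log2(TPM + 1) and log2(TPM + 0.1), an adjusted p of 0.1, and without any 1 library (0 to 0). DESeq2 called 2, and the fit without SHR replicate 1 and BNLx replicate 3 together called 24. For isoforms, 1 member isoform was called, against 2 with DESeq2, 1 to 4 without 1 library (4 without SHR replicate 1 or BNLx replicate 3) and 10 without both. For usage, 1 member was called, against 0 with limma on voom weights, 0 to 4 without 1 library and 11 without both. The cause of these changes was not tested. The 2 strains share replicate numbers, and nothing states that equal numbers mark paired samples. The correlations of deviations were -0.036, 0.318 and -0.198 for equal numbers. For unequal numbers they ran from -0.328 to 0.247, the highest being SHR replicate 1 with BNLx replicate 3. With 3 libraries per strain, these values cannot decide whether samples were paired. With the replicate number as a block, 0 member genes, 1 member isoform and 2 members by usage (Nlgn1 and Epha4) were called.

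Over all features, the counts of calls moved as follows. Genes numbered 147, against 543 with DESeq2, 247 at an adjusted p of 0.1, 0 with the block, 12 to 156 without 1 library and 4172 without both. Isoforms numbered 324, against 1166 with DESeq2, 172 at an adjusted p of 0.05, 48 with the block, 183 to 400 without 1 library and 944 without both. Loci by usage numbered 338, against 172 with limma on voom weights, 204 to 577 without 1 library and 1781 without both. Both libraries that stand apart were left out because of how they lay in these data, which leaves 2 against 2. BNLx replicates 2 and 3 were the shallowest libraries.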

Other observations

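The gap inside the last exon of Nlgn1 STRG.8753.1 was followed over all isoforms after its value had been seen. Of the 32348 isoforms past the filter, 118 have a gap between exons of under 30 bases. Of these, 15 (12.7%) reached an unadjusted p of 0.001 in edgeR, 15 of them higher and 0 lower in SHR. Of the other 32230 isoforms, 309 (0.959%) did, 139 of them higher and 170 lower in SHR. STRG.8753.1 is the only one of the 193 member isoforms past the filter with such a gap. These are counts without a test.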
